A study of Mus musculus with 47 samples.

Results

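The axon guidance ligands and receptors examined here were the 69 mouse genes whose symbols name semaphorins of classes 3 to 7, plexins, neuropilins, ephrins, Eph receptors, Slits, Robo receptors, netrins, Unc5 receptors and Dcc. They were picked by symbol alone, and all 69 were present among the 21034 genes of the chronic tables and the 23393 genes of the acute table. By family they comprised 7 secreted semaphorins of class 3, 13 membrane semaphorins, 9 plexins, 2 neuropilins, 5 ephrins of type A, 3 ephrins of type B, 9 Eph receptors of type A, 5 of type B, 3 Slits, 4 Robo receptors, 4 netrins and 5 netrin receptors. RNA was sequenced from brain regions of wild type C57BL/6 mice fed cuprizone, a copper chelator that kills mature oligodendrocytes and strips myelin, or left naïve. In the chronic experiment, corpus callosum (CC), hippocampus (HP) and cortex (CTX) were taken after 12 weeks of cuprizone (2, 3 and 3 libraries in that order), after 4 more weeks on normal food (12+4 weeks; 2, 3 and 3), after 8 (12+8 weeks; 3, 2 and 3), after 12 (12+12 weeks; 2 in each region), and from naïve mice labelled 8 months old (3, 3 and 4). In the acute experiment only CC was taken, with 3 libraries after 3 weeks of cuprizone, 3 after 5 weeks followed by 1 week of recovery (5+1 weeks), and 1 from a naïve female labelled 2 months old. Most groups held both sexes, but each 12+12 week group was female only, and no age is labelled for the cuprizone mice. By the feeding schedule in the study's methods the 12 week mice were younger than the naïve mice and the recovery mice older than the 12 week mice, so age and treatment cannot be told apart in these comparisons. No label ties a library to a mouse, and p-values therefore measure the spread between libraries.

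Growing axons are steered by these proteins, which work as ligand and receptor families. Semaphorins signal through plexins, and the secreted class 3 members need neuropilins as binding partners. Ephrins are tethered to cells and bind Eph receptor tyrosine kinases, Slits bind Robo receptors, and netrins attract axons through Dcc and repel them through Unc5 receptors. In adult brain the same cues also act on glia: oligodendrocyte precursors are repelled by Sema3a and attracted by Sema3f, and several members, among them Sema4d and Plxnb3, are known to be made by oligodendrocytes.

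Several facts of the libraries touch the values that follow. The chronic values are log2 values that the authors centred for each gene on 1 value for all regions, which makes 0 a gene's own middle, differences between libraries are kept, and levels of different genes cannot be compared. By the study's methods CTX was sequenced with shorter reads on another instrument than CC and HP, so region and sequencing cannot be told apart wherever CTX is set against another region. Of the 13 HP libraries, 8 carried a mixed signal of sex-linked genes. By cut-offs on Xist and Y-linked genes, 32 of the 40 chronic libraries matched the labelled sex. Among these, the female second 12+4 week and first 12+8 week CC libraries had Y-linked means of -0.19 and -0.57. The other female CC libraries lay between -1.65 and -1.45. In the male 12 week CC library Xist was at -3.99, against -5.49 to -4.94 in the other male CC libraries. In each CC and HP library between 26.9% and 31.4% of the values carried a last, extra decimal of 5, against 0% in CTX. The mean of a pair of numbers would give such a decimal. Markers of striatal neurons (8 genes, library medians) ranged between -0.64 and 2.67 in CTX libraries and between -1.01 and 1.77 in CC libraries. Genes of mature oligodendrocytes (14 genes) were higher in CC than in HP and CTX of naïve mice in 14 of 14 cases. Of the 69 members, 37 overlap another annotated gene, 7 of them a protein-coding gene (Epha1, Epha5, Ntn3, Ntn5, Plxna1, Sema3b and Unc5a), and whether reads were counted by strand is not given in the sources used here.

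Absolute levels are kept in the acute table, where the linear value was divided by the length of the longest transcript. In the naïve CC library the highest members were Sema7a, a membrane-anchored semaphorin that binds Plxnc1 and integrins, at 683 per kb, and Efnb3, a transmembrane ephrin that repels axons at the midline of the spinal cord, at 613 per kb. They were followed by Sema6b at 358, the Eph receptor Epha4 at 316, Ephb6 at 291 and the netrin receptor Unc5a at 229 per kb. Against the median of 86.6 per kb over 13674 genes, 24 members lay above. At the low end stood Efna4 at 4.62, Epha1 at 4.67, Epha3 at 7.88 and Epha2 at 8.61 per kb, all Eph receptors or an ephrin. Efna4, with a mean linear value of 8.48 over the 7 libraries, was the only member under the acute minimum of 10, and Epha1 at 13.1 lay just inside it, so 68 members were tested there and all 69 in the chronic tables.

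In chronically demyelinated CC the guidance genes did not move as a block: 15 of 69 members differed between 12 weeks of cuprizone and naïve (limma, adjusted p below 0.05), 8 of them higher and 7 lower, beside 9.06% of all genes higher and 9.65% lower. That is 21.7% of members, beside 18.7% of all 17054 genes tested, so the share was near that of genes at large, and the median difference was 0.12 over the members and 0.00 over all genes. The lower group held the ephrins Efna1, Efna2 and Efnb3, the semaphorin Sema6d and the receptors Plxnb3, Unc5b and Ephb1, and the higher group held all 4 plexins of type A, Slit2, Ephb6, Sema4f and, with the widest difference, Robo3. In HP, 0 of 69 members passed (0.0176% of all genes), and in CTX 0 of 69 (0.956% of all genes), with 4 and 8 members at an unadjusted p below 0.05. With libraries weighted by their quality, limma called 7 members in HP and 0 in CTX. At the recovery times 0 members passed against naïve in either region, beside 0%, 0% and 0.106% of all genes in HP and 0.0117%, 0% and 0.229% in CTX at 12+4, 12+8 and 12+12 weeks, with 2, 8 and 5 members in HP and 2, 9 and 11 in CTX at an unadjusted p below 0.05. The mean of the 4 cuprizone groups gave 0 members in HP (0% of all genes) and 0 in CTX (0.0704%), with 1 and 7 at an unadjusted p below 0.05. A call in CC alone does not show a difference between regions, which was tested as such further on.

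**Figure D1:**
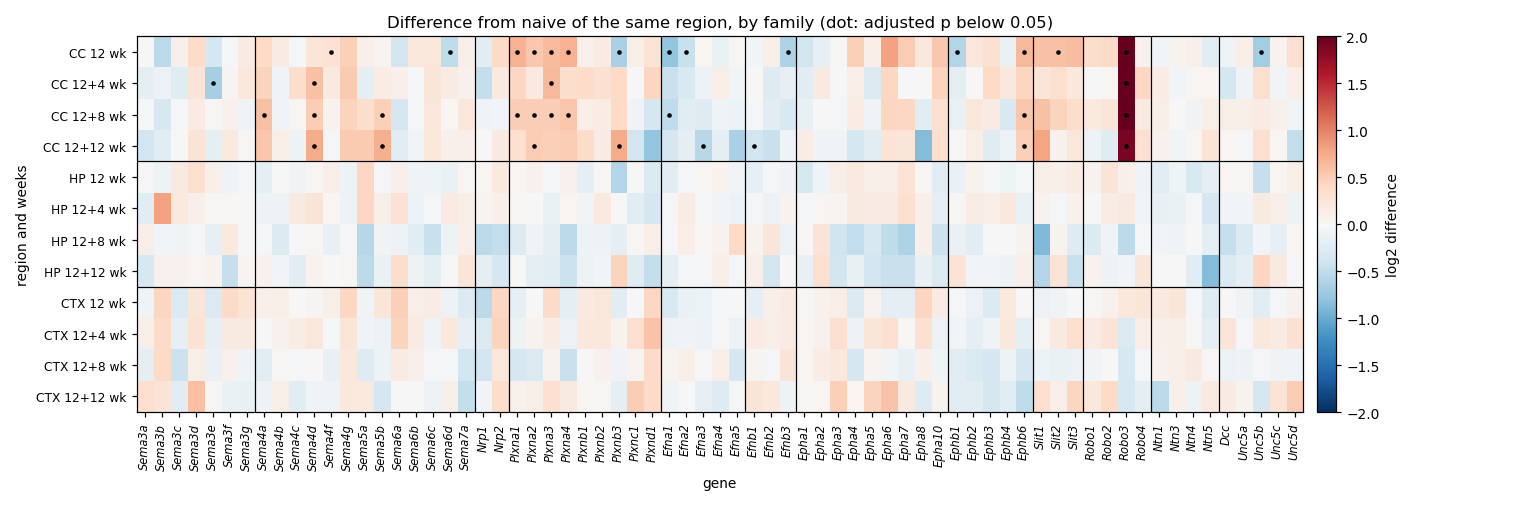
Log2 difference of each of the 69 members (columns, by family) from the naïve libraries of the same region at each cuprizone time in CC, HP and CTX (rows), with a colour scale from -2 to 2 and a dot for an adjusted p below 0.05. Dots stand in CC rows only, and Robo3 has one at all 4 CC times.

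Among the ligands, Efna1, a GPI-anchored ephrin that activates Eph receptors of type A, had the clearest fall. It was at -0.16 and -0.30 in the 12 week CC libraries, against 0.69, 0.37 and 0.60 in naïve CC. The groups did not overlap, as for 49.95% of all genes tested, and the difference was -0.78 ± 0.17 (SE, n = 2 and 3, adjusted p = 0.0021). Efnb3 fell as well, with -0.20 and -0.29 in 12 week CC and 0.88, 0.32 and -0.06 in naïve CC, a difference of -0.62 ± 0.18 (adjusted p = 0.017), and its naïve libraries spread widely. Efna2, another ephrin of type A, differed by -0.44 ± 0.13 and Sema6d, a transmembrane semaphorin that binds Plxna1, by -0.50 ± 0.18 (adjusted p = 0.019 and 0.046). Together 3 of the 8 ephrins were lower and 0 higher. Of the Slits, the secreted repellents of Robo-bearing axons, Slit2 was higher at -0.15 and -0.01 in 12 week CC, against -0.97, -0.31 and -0.70 in naïve CC (0.58 ± 0.19, adjusted p = 0.033). The differences of all 3 Slits had a median of 0.58, but Slit2 alone passed. Sema4f, a membrane semaphorin, was higher by 0.29 ± 0.10 (adjusted p = 0.044). The secreted semaphorins gave 0 calls among 7, with Sema3a at 0.01 and Sema3f at -0.04, and the netrins gave 0 among 4, with Ntn1, the founding netrin, at -0.06.

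Among the receptors that fell were Plxnb3, a receptor of Sema5a, Unc5b, a repulsive netrin receptor also found on endothelium, and Ephb1, a receptor of ephrins of type B. Plxnb3 was at -0.02 and -0.06 in 12 week CC, against 1.08, 0.41 and 0.37 in naïve CC (-0.66 ± 0.18, adjusted p = 0.013). For Unc5b the values were -0.10 and -0.14 in 12 week CC and 1.00, 0.54 and 0.17 in naïve CC (-0.69 ± 0.22, adjusted p = 0.028). Ephb1 was at -0.13 and -0.09 in 12 week CC, against 0.72, 0.45 and 0.27 in naïve CC (-0.59 ± 0.15, adjusted p = 0.0078). In all 3 genes the first naïve library was the highest of the naïve group, and it also had the highest mature oligodendrocyte level of all CC libraries. Mature oligodendrocyte markers fell with these receptors: 13 of 14 passed as lower, and the library medians lay between -0.41 and -0.18 in 12 week CC and between 0.36 and 1.44 in naïve CC. In bulk tissue, fewer cells of a type and less RNA per cell cannot be told apart. With that marker level as a covariate, chosen after seeing the data, 2 of 69 members were called. The differences became 0.085 for Plxnb3, 0.27 for Unc5b and -0.036 for Ephb1. The level did not overlap between the groups, so this fit cannot separate it from the treatment. Of the other lists, microglial markers were lower in 2 of 8 cases, astrocyte markers in 0 of 8 and striatal neuron markers in 0 of 8 (median difference -0.90), and with the striatal level as a covariate 11 members were called. Endothelial markers were lower in 1 of 8 cases, Kdr at -0.56 (adjusted p = 0.031), with library medians between -0.30 and -0.02 in 12 week CC and between -0.22 and 0.03 in naïve CC. Markers of disease-associated microglia were higher in 2 of 9 cases (Itgax 1.13, Cst7 0.72) and those of reactive astrocytes in 1 of 9 (Serpina3n 1.00), and the part of these 3 lists in the results was not tested.

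The receptors that rose were led by Robo3, known for letting commissural axons cross the midline and, in mammals, for not binding Slits. Its values were 0.79 and 1.04 in 12 week CC, against -1.27, -1.31 and -0.84 in naïve CC, and the groups lay far apart. The difference was 2.06 ± 0.30 (adjusted p = 4.6e-05), and it stayed past the threshold in 14 of 14 other settings and without each of the 5 libraries in turn, with values between 1.34 and 2.52. Robo1, a Slit receptor of the same family, differed by 0.35 without passing (adjusted p = 0.25). The plexins of type A, which pass on class 3 and class 6 semaphorin signals, rose in 4 of 4 cases: Plxna1 by 0.70 ± 0.16 (adjusted p = 0.004), Plxna4 by 0.70 ± 0.21 (0.023), Plxna3 by 0.64 ± 0.19 (0.018) and Plxna2 by 0.53 ± 0.15 (0.014). Plxna1 was at 0.09 and 0.11 in 12 week CC and at -0.77, -0.42 and -0.60 in naïve CC, with no overlap, as for 49.95% of all genes. Their co-receptors Nrp1 and Nrp2 differed by -0.22 and 0.38, and neither passed. Ephb6, an Eph receptor without kinase activity, rose by 0.66 ± 0.16 (adjusted p = 0.0057). Among the 9 Eph receptors of type A, 0 passed, with Epha4 at 0.48 (adjusted p = 0.059).

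Over all genes the 12 week difference in CC followed transcript length (Spearman 0.40, across genes, which are not independent), and members are long, with a median of 5000 bases against 3232 over all genes. After a correction for length and GC content 10 members were called, 3 higher and 7 lower. Robo3, Plxna1 and Ephb6 kept their calls, while Plxna2, Plxna3, Plxna4, Slit2 and Sema4f did not, at differences between 0.22 and 0.41. RNAs that stay in the nucleus (8 genes) were higher in 12 week CC in 6 of 8 cases, with library medians between 0.35 and 0.52 in 12 week CC and between -0.96 and -0.36 in naïve CC. With that level as a covariate Robo3 was at 1.34 (adjusted p = 0.0097) and Plxna1 at 0.45 (adjusted p = 0.16), and 6 members were called. Without the first 12 week CC library 3 members were called, also 3 without the second, and 5 without the first naïve library, while without the third naïve library 16 were.

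**Figure D2:**
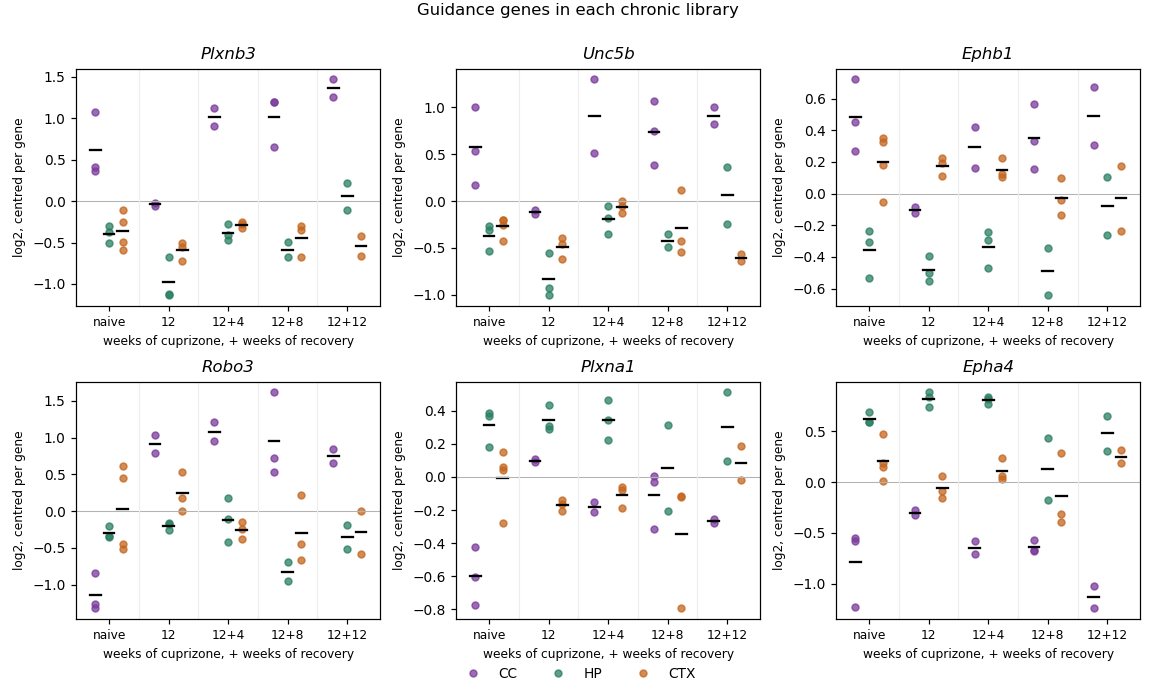
Deposited log2 value (vertical axis, centred per gene) of Plxnb3, Unc5b, Ephb1, Robo3, Plxna1 and Epha4 in each of the 40 chronic libraries (points) by region and time, with a bar at each group mean. In CC, Robo3 is above 0.5 in all 9 cuprizone libraries and below -0.8 in the 3 naïve libraries, and Plxnb3 and Unc5b are lowest at 12 weeks.

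Over the whole course in CC, the mean of the 4 cuprizone groups differed from naïve for 11 members, 9 higher and 2 lower (15.9% of members, beside 28.2% of all genes, 13.7% higher and 14.5% lower). By time, 4 members passed at 12+4 weeks, 10 at 12+8 weeks and 8 at 12+12 weeks, beside 13.7%, 18.9% and 16.2% of all genes, and after the length and GC correction 4, 5 and 11 did. Robo3 stayed high throughout. Its values were -1.27, -1.31 and -0.84 in naïve CC, 0.79 and 1.04 at 12 weeks, 0.95 and 1.21 at 12+4 weeks, 0.72, 1.62 and 0.53 at 12+8 weeks, and 0.84 and 0.66 at 12+12 weeks. Every cuprizone library lay above every naïve library, at a mean difference of 2.07 ± 0.22 (adjusted p = 3.2e-07), and the difference from naïve was 1.89 at 12+12 weeks. Over the 4 groups, 21.17% of all genes and 11.59% of members had no overlap with naïve, in either direction. Sema4d, a repellent that signals through Plxnb1, was at 0.19, 0.03 and -0.24 in naïve CC, 0.24 and 0.22 at 12 weeks, 0.76 and 0.38 at 12+4 weeks, 0.52, 0.36 and 0.60 at 12+8 weeks, and 0.79 and 0.68 at 12+12 weeks. It did not pass at 12 weeks (0.24, adjusted p = 0.22) but did at each recovery time, and its mean difference was 0.52 ± 0.10 (adjusted p = 0.00037), without overlap between cuprizone and naïve libraries. Its receptor Plxnb1 gave no call in CC against naïve at 12 weeks (0.08, adjusted p = 0.73), 12+4 weeks (0.37, 0.0697) or 12+8 weeks (0.14, 0.49). Its difference at 12+12 weeks is not given here, so these values do not cover the whole course. The membrane semaphorins Sema4a and Sema4g were higher by 0.50 and 0.49, the 4 plexins of type A by 0.43 to 0.56, and Ephb6 by 0.53, while Efna1 and Efna2 were at -0.52 and -0.29.

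After the length and GC correction 5 members were higher and 5 lower over this course, and the 4 plexins of type A no longer passed, at 0.15 to 0.35. Nuclear RNA markers were at 0.35 to 0.76 in all 9 cuprizone CC libraries and at -0.96 to -0.36 in naïve CC, and with their level as a covariate 3 members were called, Robo3 among them at 1.25, while Sema4g turned to -0.0445.

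Recovery was followed by setting 12+12 weeks against 12 weeks. In CC, 6 members passed, 3 higher and 3 lower (8.7% of members, beside 4.22% of all genes, 2.74% higher and 1.48% lower), and the median difference was -0.09 over the members and -0.01 over all genes. Plxnb3, Unc5b and Ephb1 were the 3 that rose. The 2 12 week libraries also stand in the comparison with naïve, with the opposite sign, so the fall there and the rise here are not independent. Plxnb3 was at 1.47 and 1.25 at 12+12 weeks, against -0.02 and -0.06 at 12 weeks (1.40 ± 0.20, adjusted p = 5.8e-05). It was already at 1.13 and 0.90 at 12+4 weeks, where it and Unc5b were the only 2 members to pass against 12 weeks (1.05 and 1.02, beside 0.809% of all genes), and at 12+12 weeks it stood above naïve by 0.74 (adjusted p = 0.008). At 12+8 weeks Plxnb3 alone passed against 12 weeks (1.05, adjusted p = 0.0025, beside 0.756% of all genes), with 8 members at an unadjusted p below 0.05. Endothelial markers were above 12 weeks at 12+4 weeks by a median of 0.37, 1 of 8 passing (Kdr 0.86, adjusted p = 0.032), and by 0.14 at 12+12 weeks with 0 of 8, and their part was not tested. Unc5b was at 1.00 and 0.82 at 12+12 weeks, against -0.10 and -0.14 at 12 weeks (1.03 ± 0.24, adjusted p = 0.01). Ephb1 was at 0.67 and 0.31 at 12+12 weeks and at -0.13 and -0.09 at 12 weeks (0.59 ± 0.17, adjusted p = 0.035). Neither Unc5b nor Ephb1 passed against naïve at 12+12 weeks, at 0.34 and 0.01.

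The 3 members that fell in recovering CC were Epha4, a receptor of both ephrin types that astrocytes and neurons carry, Efna3, one of its ligands, and Plxnc1, the receptor of Sema7a. Epha4 was at -1.24 and -1.02 at 12+12 weeks, against -0.33 and -0.28 at 12 weeks (-0.83 ± 0.20, adjusted p = 0.011). Efna3 differed by -0.60 ± 0.14 and Plxnc1 by -0.51 ± 0.14 (adjusted p = 0.0073 and 0.039). In none of the 6 did the groups overlap, although 50.9% of all genes tested also had no overlap with 2 libraries a group. Mature oligodendrocyte markers were higher at 12+12 weeks in 13 of 14 cases, with library medians between 1.04 and 1.26 at 12+12 weeks and between -0.41 and -0.18 at 12 weeks. With their level as a covariate, chosen after seeing the data, 0 members were called, with Plxnb3 at 0.50, Unc5b at -0.13 and Ephb1 at -0.073. The level did not overlap between the groups, so this fit cannot separate it from the recovery difference. Without the second 12 week library 1 member was called, Plxnb3, without the first 12+12 week library 2, without the first 12 week library 3, and without the second 12+12 week library 10.

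The promoters of Plxnb3, Unc5b and Ephb1, the members that rose in recovering CC, are shown from 250 bases before to 50 after the gene start, in the RefSeq annotation of GRCm38.p6. Such a window was found for 59 of the 69 members. The capitals mark ACAATG or its opposite-strand form CATTGT, a core motif of Sox transcription factors, a family that includes the oligodendrocyte factor Sox10. Plxnb3 lies at chrX:73756853-73757152 on the plus strand, Unc5b at chr10:60831532-60831831 on the minus strand and Ephb1 at chr9:102354644-102354943 on the minus strand.
Plxnb3: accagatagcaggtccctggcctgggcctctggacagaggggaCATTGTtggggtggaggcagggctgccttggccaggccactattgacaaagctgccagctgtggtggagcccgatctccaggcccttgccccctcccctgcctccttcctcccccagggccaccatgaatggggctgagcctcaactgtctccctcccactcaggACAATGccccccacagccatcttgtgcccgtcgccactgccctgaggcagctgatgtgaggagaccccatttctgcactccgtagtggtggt
Unc5b: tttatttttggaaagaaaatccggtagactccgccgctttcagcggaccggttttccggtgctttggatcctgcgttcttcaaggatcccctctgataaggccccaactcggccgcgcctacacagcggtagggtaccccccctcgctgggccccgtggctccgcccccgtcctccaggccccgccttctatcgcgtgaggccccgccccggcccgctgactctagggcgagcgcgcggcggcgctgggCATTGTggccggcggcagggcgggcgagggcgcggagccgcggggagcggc
Ephb1: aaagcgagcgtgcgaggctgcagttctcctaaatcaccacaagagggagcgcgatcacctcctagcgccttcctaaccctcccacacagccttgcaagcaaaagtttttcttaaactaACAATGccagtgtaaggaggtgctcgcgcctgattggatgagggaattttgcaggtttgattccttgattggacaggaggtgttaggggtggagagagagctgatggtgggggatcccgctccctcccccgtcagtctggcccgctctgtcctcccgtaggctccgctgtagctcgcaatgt
Plxnb3 holds 2 matches, at bases 44 and 209 of the window, Unc5b 1 at base 250 and Ephb1 1 at base 119. All 3 members that rose thus hold a match, beside 8 of 59 members (13.56%, the others being Ntn4, Plxnc1, Sema3a, Sema4a and Sema4d) and 12.57% of 32851 promoter windows of the same length. The motif was picked after the values were seen, and Plxnc1, which holds it, was among the members that fell. Of 5 further motifs searched on both strands, ACAAAG was in 16.95% of members and 18.71% of all windows, CAGCTG in 20.34% and 16.3%, CACGTG in 8.47% and 7.15%, GCGTGGGCG in 3.39% and 0.61%, and GGGCGG in 74.58% and 35.66%. The last of these is a GC box, and members are rich in GC, with a median of 56.12% in their transcripts against 49.82% over all genes. The GC content of the promoters was not measured. The windows were not filtered by gene type or expression, so for every motif the shares compare unlike sets. ACAAAG, a near variant of the marked motif, was found in Plxnb3 but not in Unc5b or Ephb1. The match in all 3 members that rose thus holds for ACAATG only among the motifs searched. A match is a run of letters and was not tested as a site.

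In HP, Plxnb3 and Unc5b were also higher at 12+12 weeks than at 12 weeks. Of 69 members 3 passed there (4.35%, beside 2.57% of all genes). At 12+4 and 12+8 weeks 0 members passed against 12 weeks in HP (0.041% and 0% of all genes) and 0 in CTX (0.0528% and 0.123%), with 5 and 17 members in HP and 4 and 7 in CTX at an unadjusted p below 0.05. Plxnb3 was at -0.50, -0.30 and -0.38 in naïve HP, at -0.67, -1.13 and -1.13 at 12 weeks and at 0.21 and -0.10 at 12+12 weeks (1.03 ± 0.18 between 12+12 and 12 weeks, adjusted p = 0.0017). Its 12 week HP libraries all lay below the naïve ones, but this difference did not pass (-0.58, adjusted p = 0.57), and 22.07% of all genes lacked overlap there. Unc5b was at 0.37 and -0.24 at 12+12 weeks, against -0.55, -1.0 and -0.93 at 12 weeks (0.89 ± 0.22, adjusted p = 0.024), with the lower recovery library close to the 12 week group. Epha7, a receptor of ephrins of type A, fell to -0.06 and 0.53 at 12+12 weeks, against 0.81, 1.09 and 1.01 at 12 weeks (-0.73 ± 0.19, adjusted p = 0.032). Ephb1 was at 0.41 without passing (adjusted p = 0.17).

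Marker genes moved with these HP results. Mature oligodendrocyte markers were higher in 12 of 14 cases, with medians between -0.02 and 0.51 at 12+12 weeks and between -1.30 and -0.70 at 12 weeks, and markers of hippocampal neurons (8 genes) lay between -0.37 and 1.02 at 12+12 weeks and between 1.46 and 1.65 at 12 weeks. With the oligodendrocyte level as a covariate 0 members were called, with Unc5b at -0.13, and with the hippocampal level 1. Neither level overlapped between the groups, so these fits cannot separate the levels from the recovery difference. Without the 8 libraries of mixed sex-linked signal 0 members were called, and 0 without the first 12+12 week library.

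In CTX, 3 of 69 members passed between 12+12 and 12 weeks (4.35%, beside 4.69% of all genes), none of them shared with the calls of CC in the same direction. Over all genes this CTX difference followed GC content (Spearman -0.413 across genes), and after the length and GC correction 2 members were called. Plxnc1, which fell in CC, was higher in CTX at 0.63 and 0.82 at 12+12 weeks, against 0.25, 0.22 and 0.24 at 12 weeks (0.48 ± 0.13, adjusted p = 0.033). Efnb1, a transmembrane ephrin, was higher by 0.44 ± 0.11 (adjusted p = 0.022). Ntn1 was at 1.22, 0.00, 0.35 and 0.44 in naïve CTX, at 0.75, 0.69 and 0.66 at 12 weeks and at -0.35 and 0.27 at 12+12 weeks (-0.74 ± 0.22 between 12+12 and 12 weeks, adjusted p = 0.043). Striatal neuron markers were at 0.51 to 1.04 in the 12+12 week CTX libraries and at 1.98 to 2.43 in the 12 week ones, a median difference of -1.43, and with their level as a covariate 2 members were called. Plxnb3 was at -0.42 and -0.66 at 12+12 weeks and at -0.51, -0.56 and -0.72 at 12 weeks (0.06, adjusted p = 0.89), and Unc5b differed by -0.11. Without any 1 of the first 2 12 week libraries 0 members were called in CTX.

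Whether the effects themselves differed between regions was tested as a difference of differences. By the study's methods the 3 regions were dissected from brains of the same experiment, so libraries of different regions may come from the same mice, but they were fitted as independent. At 12 weeks, CC and CTX differed for 2 of 69 members (2.9%, beside 2.4% of all genes), Robo3 by 1.84 ± 0.39 (adjusted p = 0.016) and Plxna1 by 0.86 ± 0.21 (adjusted p = 0.033), and CC and HP for 1 (1.45%, beside 1.54%), Robo3 by 1.96 ± 0.40 (adjusted p = 0.015). Robo3 was at -0.16, -0.18 and -0.25 in 12 week HP, against -0.34, -0.35 and -0.20 in naïve HP, and at 0.18, 0.01 and 0.53 in 12 week CTX, against -0.45, 0.62, 0.45 and -0.51 in naïve CTX. The HP libraries thus lay close together, and the CTX groups overlapped. The Robo3 calls were lost without either 12 week CC library, at values between 1.72 and 2.08, and the CC and HP call also without the 8 HP libraries of mixed sex-linked signal. Plxna1 lost its call without either of these CC libraries, any of the 3 12 week CTX libraries, the fourth naïve CTX library or the first naïve CC library, at values between 0.78 and 0.88. For the mean of the 4 cuprizone groups, Robo3 differed by 2.25 between CC and CTX and by 2.15 between CC and HP (adjusted p = 5.6e-05 and 0.0001). Plxna1, Plxna2, Plxna4, Sema4d and Ephb6 also passed in both, so that 6 members differed between CC and CTX (8.7%, beside 8.37% of all genes) and, with Plxna3, 7 between CC and HP (10.1%, beside 13.3%). After the length and GC correction 5 members differed between CC and CTX and 1 between CC and HP.

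The recovery effects were compared in the same way, a contrast added after the values had been seen. Between CC and CTX, 8 of 69 members differed (11.6%, beside 3.88% of all genes). The difference of differences was positive for Plxnb3 (1.34, adjusted p = 0.0066), Sema5b (1.23, 0.013), Unc5b (1.14, 0.046) and Ephb1 (0.80, 0.041). Sema5b stood at 0.66 in CC and -0.57 in CTX without passing in either, and Unc5b and Ephb1 were at -0.11 and -0.21 in CTX. Unc5d (-1.22, 0.038), Epha4 (-1.14, 0.015), Plxnc1 (-0.99, 0.0059) and Efnb1 (-0.75, 0.0089) had negative ones. Between HP and CTX 4 differed (5.8%, beside 5.99% of all genes): Plxnb3 by 0.98, Robo4 by 0.75, Plxnc1 by -0.72 and Epha7 by -1.11. Over all genes both contrasts with CTX followed GC content (Spearman 0.336 for CC and 0.415 for HP, across genes). After the length and GC correction 8 members differed between CC and CTX and 3 between HP and CTX. Between CC and HP 0 differed (0.111% of all genes), with 8 members at an unadjusted p below 0.05. The CC and HP effects of Plxnb3 differed by 0.36 ± 0.27 and those of Unc5b by 0.14 ± 0.33, and a p that misses the threshold does not show that they were alike.

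The naïve regions differed for more members than any cuprizone comparison did. CC and HP, sequenced in the same way by the study's methods, differed for 36 of 69 members (52.2%, beside 17.7% of all genes), 14 higher and 22 lower in CC, beside 8.89% and 8.84% of all genes. HP and CTX differed for 34 (49.3%, beside 40.6%), 13 higher and 21 lower in HP (20.9% and 19.7% of all genes), and CC and CTX for 30 (43.5%, beside 43.1%), 6 higher and 24 lower in CC (21.7% and 21.4%). The share exceeded that of all genes most clearly for CC against HP. After the length and GC correction the split for CC against CTX was 10 higher and 12 lower, and for HP against CTX 23 higher and 18 lower, while for CC against HP it stayed at 14 and 22. With quantile normalization the HP against CTX split was 19 higher and 21 lower. For CC against CTX the split was 6 higher and 23 lower with quantile normalization, so it moved far less there than with the length and GC correction. The split under other settings, such as fits of only the groups compared, is not given here. Region and sequencing cannot be told apart in any comparison with CTX.

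**Figure D3:**
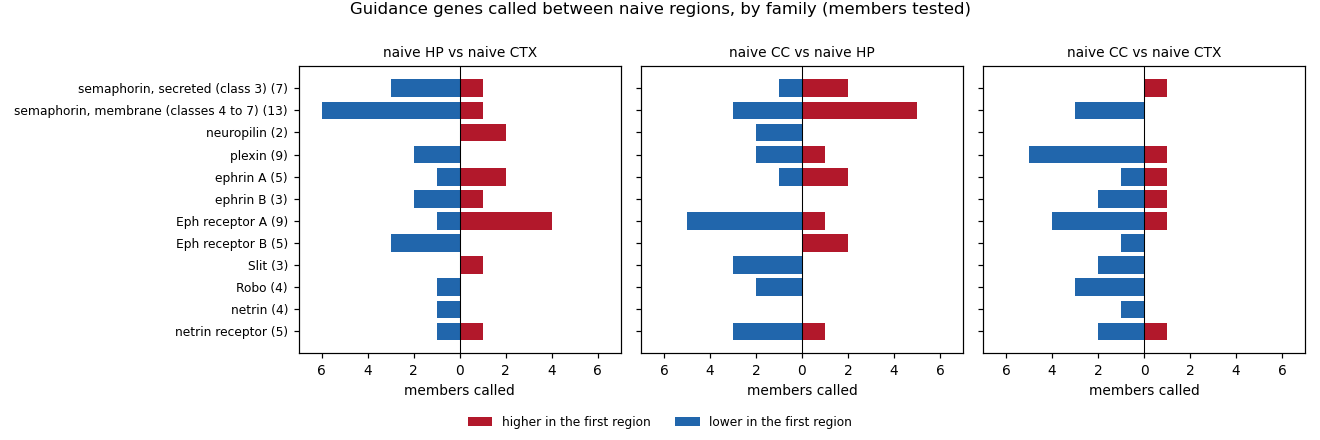
Number of members called higher (to the right) and lower (to the left) in the first-named naïve region, for HP against CTX, CC against HP and CC against CTX and each of the 12 families (members tested in brackets). In CC against HP, Slits and neuropilins have calls on the lower side only, at 3 of 3 and 2 of 2.

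Among ligands, Sema3a and Efna5 set HP apart from the other regions. Sema3a, the repellent that acts through Nrp1, was at -1.14, -1.21 and -0.81 in naïve HP, against 0.98, 1.11, 0.50 and 1.80 in naïve CTX (-2.14 ± 0.27, adjusted p = 2.6e-07), and at 0.37, 1.04 and 0.51 in naïve CC. Efna5, a ligand of Eph receptors of type A that patterns cortical and hippocampal connections, was at -0.92, -1.16 and -0.81 in naïve HP, against 1.14, 1.25, 0.68 and 1.69 in naïve CTX (-2.15 ± 0.26, adjusted p = 2.2e-07), with naïve CC between at 0.23, 1.03 and 0.22. In both, no HP library came near the other regions, while 45.33% of all genes had no overlap between naïve HP and CTX. Sema3f, the ligand of Nrp2, was lower in HP than in CTX (-1.01) and higher in CC than in HP by 0.80. Slit1 ran the other way, at 1.00, 0.97 and 0.75 in naïve HP, against -0.62, -1.18, 0.21 and -0.94 in naïve CTX (1.54 ± 0.27, adjusted p = 3.8e-05), and all 3 Slits were lower in CC than in HP, at -1.72 for Slit1, -1.09 for Slit3 and -0.84 for Slit2. Of the membrane semaphorins, Sema6a, Sema4d and Sema5b were higher in CC than in HP by 0.82, 0.41 and 0.75, and Sema7a was lower in HP than in CTX (-0.66, adjusted p = 0.0029). Efnb2, a transmembrane ephrin, and Ntn1 were lower in HP than in CTX, at -0.62 and -0.66, and Sema5a, the ligand of Plxnb3, was higher by 0.89.

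Both neuropilins, the partners of class 3 semaphorins, were higher in HP. Nrp1 was at 0.86, 0.77 and 0.65 in naïve HP, against -0.48, -0.70, 0.30 and -0.43 in naïve CTX (1.09 ± 0.22, adjusted p = 0.00025), and it was lower in CC than in HP by a like amount (-1.0). Nrp2 was higher in HP than in CTX by 0.78 and lower in CC than in HP (-1.46 ± 0.32, adjusted p = 0.0012). Among the 9 Eph receptors of type A, 5 were lower in CC than in HP, Epha6 (-2.22 ± 0.32), Epha7 (-1.56 ± 0.17), Epha4 (-1.41 ± 0.16), Epha3 (-1.19 ± 0.21) and Epha5 (-0.70 ± 0.19), and Epha1 was higher (0.37). Epha6 was at -1.61, -1.28 and -1.02 in naïve CC, against 0.93, 0.99 and 0.83 in naïve HP, and at 0.37, -0.94, -0.01 and 0.52 in naïve CTX. Markers of hippocampal neurons were lower in CC than in HP in 7 of 8 cases (median -2.41), beside these receptors. Robo1 (-0.93), Plxna4 (-1.28), Plxna1 (-0.91), Dcc (-0.66) and Unc5c (-0.80) were lower in CC than in HP too. Plxnd1, a receptor of Sema3e, was at -0.69, -0.38 and -0.18 in naïve HP, against 1.22, 1.14, 0.33 and 1.27 in naïve CTX (-1.41 ± 0.31, adjusted p = 0.00061), where the lowest CTX library stood well below the other 3.

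Few receptors were higher in CC. Plxnb3 was at 1.08, 0.41 and 0.37 in naïve CC, against -0.50, -0.30 and -0.38 in naïve HP and -0.59, -0.26, -0.11 and -0.50 in naïve CTX, with differences of 1.01 ± 0.16 and 0.98 ± 0.15 (adjusted p = 4.4e-05 and 8e-06). Unc5b was higher by 0.94 and 0.84, and Ephb1 by 0.84 against HP only, with 0.28 against CTX (adjusted p = 0.075). Efnb3 and Efna1 were the ligands higher in CC than in CTX, by 0.77 and 0.79, together with Sema3b (0.82). Robo3, by contrast, was lower in naïve CC than in CTX (-1.17 ± 0.25, adjusted p = 0.00037) and HP (-0.85 ± 0.27, adjusted p = 0.024). The other receptors fixed for naming, Ephb2 and Plxnb1, gave 0 calls in the comparisons of naïve regions, with differences between -0.30 and 0.20. Without the 8 HP libraries of mixed signal, 33 members were called for CC against HP and 25 for HP against CTX.

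**Figure D4:**
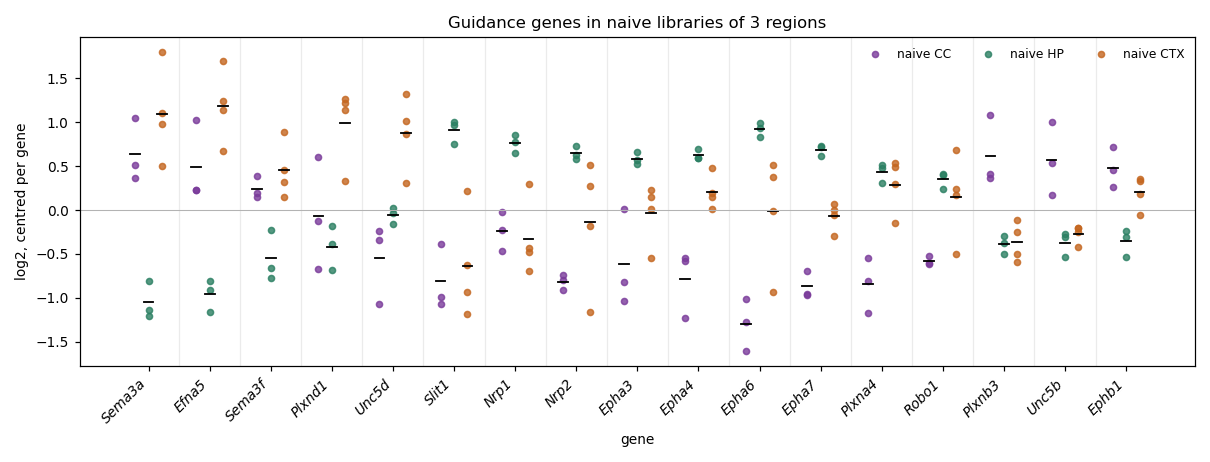
Deposited log2 values (vertical axis, centred per gene) of 17 members in each naïve library (points) of CC (3), HP (3) and CTX (4), with a bar at each group mean. By group mean Sema3a and Efna5 are lowest in HP, Slit1, Nrp1 and Epha6 highest there, and Plxnb3 and Unc5b highest in CC.

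The acute experiment gave no calls. Between 3 weeks of cuprizone and the single naïve library, 0 of 68 members passed (0% of 14536 genes, limma), and between 5+1 and 3 weeks 0 of 68 (0% of genes), with 2 and 24 members at an unadjusted p below 0.05. With library weights 17 and 19 members were called. Between 5+1 weeks and naïve 0 of 68 passed (0.00688% of genes), with 4 at an unadjusted p below 0.05. Plxnb3 was at 8.61 in the naïve library, at 7.60, 6.46 and 6.91 at 3 weeks and at 9.37, 8.59 and 8.56 at 5+1 weeks. Its differences were -1.62 ± 0.49 between 3 weeks and naïve (adjusted p = 0.65) and 1.85 ± 0.34 between 5+1 and 3 weeks (adjusted p = 0.14). The 3 and 5+1 week values did not overlap, as for 43.7% of all genes. Unc5b was at 8.94 in the naïve library, at 8.24, 7.23 and 7.48 at 3 weeks and at 9.85, 8.59 and 8.66 at 5+1 weeks, with differences of -1.29 and 1.38 in the same order. Efnb3 was at 10.93 in the naïve library, at 10.45, 9.30 and 9.78 at 3 weeks and at 11.28, 10.48 and 10.89 at 5+1 weeks (-1.09 and 1.04), and each 5+1 week library lay above each 3 week library. Mature oligodendrocyte markers had medians of 10.74 in the naïve library, 7.63 to 9.28 at 3 weeks and 10.55 to 11.07 at 5+1 weeks. Robo3 was at 7.54 in the naïve library, at 6.99, 7.29 and 7.30 at 3 weeks (-0.34, adjusted p = 1) and at 8.63, 8.51 and 7.51 at 5+1 weeks, so its 3 week libraries lay below the naïve one. Epha4 was at 10.14, 10.73 and 10.27 at 5+1 weeks, against 10.93, 11.20 and 11.10 at 3 weeks (-0.70, adjusted p = 0.18). Over all genes the 5+1 against 3 week difference followed GC content (Spearman 0.76 across genes). The columns were read in the order of the header of a further table by the authors that holds the same values, an order that the codes in the sample descriptions contradict, so which acute library is which rests on that header. Read by the codes, Plxnb3 differed by -0.02 between 3 weeks and naïve and by 1.00 between 5+1 and 3 weeks, and again 0 members passed in either comparison. Without the first 5+1 week library 14 members were called between 5+1 and 3 weeks.

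**Figure D5:**
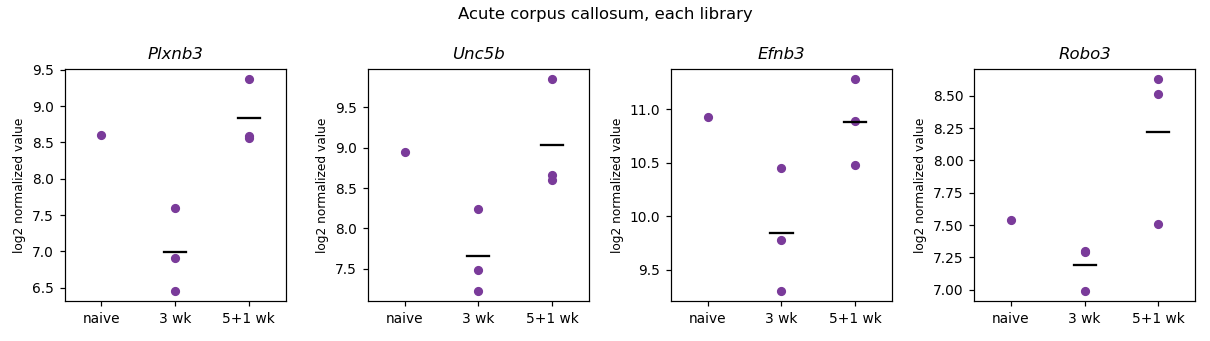
Deposited log2 value (vertical axis) of Plxnb3, Unc5b, Efnb3 and Robo3 in the 7 acute CC libraries (points; 1 naïve, 3 at 3 weeks, 3 at 5+1 weeks), with a bar at each group mean. Plxnb3 is between 8.56 and 9.37 at 5+1 weeks and between 6.46 and 7.60 at 3 weeks.

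Genes that work beside these families were looked at as 2 fixed lists. Of 45 cytoplasmic adaptors and effectors, 4 were higher and 3 lower in CC at 12 weeks, where 9.06% of all genes were higher and 9.65% lower. Dpysl2, which passes on Sema3a signals to microtubules, differed by -1.07 ± 0.12 (adjusted p = 2.1e-06), the GTPases Rhoa by -0.50 and Rac1 by -0.31, and Trio, an exchange factor downstream of Dcc, by 0.53. Of 27 further cues and receptors, 6 were higher and 1 lower: Ntrk3, the receptor of neurotrophin-3, by 0.78 ± 0.14 (adjusted p = 0.0004), Ptprs, a receptor of matrix proteoglycans, by 0.53, Rgmb by 0.51 and Nrcam, an adhesion partner of neuropilins, by 0.49, while the repellent Rgma differed by -0.38. At 12+12 against 12 weeks in CC, 1 adaptor was higher and 1 lower (Rhoa 0.27, Rnd1 -0.67), beside 2.74% and 1.48% of all genes, and of the further cues Cntn2, an adhesion molecule of axons and oligodendrocytes, was higher by 0.95 ± 0.19 (adjusted p = 0.0021). In HP and CTX at 12 weeks, 0 and 1 of the 45 adaptors and 0 of the 27 others passed, beside 0.0176% and 0.956% of all genes.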

How the data were processed

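Libraries of messenger RNA (a stranded kit, per the labels) were sequenced by the authors, aligned to GRCm38 (mm10) with TopHat2 2.0.13 and normalized with DESeq2. The deposited values are log2 normalized values per gene, which for the chronic tables the authors also centred per gene. No counts were used, so sequencing depth is unknown and no counting interval can be given. The 3 chronic tables shared 1 centring per gene: the lowest value was identical in 3250 of 3250 genes compared. A shared lowest value does not show that libraries of the 3 regions were scaled together, as the joint fit assumes, and this was not tested. With each library centred on its median, naïve CC against CTX stayed at 6 higher and 24 lower, and naïve CC against HP at 14 and 22. In every table, names turned into dates or numbers (27 genes) were left out, and every column was mapped to a sample.

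Chronic values were fitted with limma 3.58.1 (R 4.3.3) in 1 model of 15 region and time groups over 40 libraries and 17054 genes (at most 10 libraries at the lowest value), and acute values in a model of 7 libraries and 14536 genes (mean linear value of at least 10, variance trend). Moderated tests were two-sided, p-values were adjusted by Benjamini-Hochberg over all genes tested, and a gene was called at an adjusted p below 0.05. Differences of effects between regions were tested as interaction contrasts. In simulated data with 200 changed genes, the CC 12 week fit over 17054 genes recovered 52.2% of changes of 0.5 on the log2 scale. Of changes of 1 and 2 it recovered 95.5% and 98.5%, and 6.82% of its calls were false. The acute 3 week fit over 14536 genes recovered 0%, 0% and 40.9%. The simulated noise was independent between libraries, with the same spread in every group. Shifts of whole libraries and unequal spread, which the data may hold, were therefore absent from it.

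The members and gene lists were chosen with earlier results of these data known. Named members were up to 10 called in each direction per comparison, 25 chosen for their known roles, up to 4 called genes of each list, and the pair beside a filter, and others were named after their values were seen. Replicate numbers of the labels were not taken to pair libraries. Alternatives were other scalings, filters, weights, covariates, variance models, column order and samples. Sequences came from RefSeq (GRCm38.p6).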

Additional observations from a re-analysis of the deposited data

Results flagged for a closer look

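Among 51 named members in the 4 naïve CTX libraries, 2 had a library whose gap to the nearest other exceeded Dixon's 95% critical value for 4 samples, which chance alone gives in about 1 in 20 groups. Plxnb1 was at 0.20 in the first naïve CTX library, with the others between -0.20 and -0.18 (gap over range 0.958). Plxnd1 was at 0.33 in the third, with the others between 1.14 and 1.27 (gap over range 0.863).

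The effect of 12 weeks of cuprizone differed between regions by limma's test of the difference for Robo3, by 1.84 between CC and CTX and by 1.96 between CC and HP, and for Plxna1, by 0.86 between CC and CTX. The change between 12+12 and 12 weeks differed between CC and CTX for 8 members, a contrast added after the values were seen. It was larger in CC by 1.34 for Plxnb3, 1.23 for Sema5b, 1.14 for Unc5b and 0.80 for Ephb1, and the differences were -1.22 for Unc5d, -1.14 for Epha4, -0.99 for Plxnc1 and -0.75 for Efnb1. Between HP and CTX the same change differed by 0.98 for Plxnb3, 0.75 for Robo4, -0.72 for Plxnc1 and -1.11 for Epha7.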

How the results depend on the processing

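Of 1927 values of members recomputed under an alternative, 1703 kept their direction and side of the threshold, 211 lost the call, 7 gained one and 6 turned round. In the chronic comparisons only members with a call were followed, so a gain could arise only in the acute ones. The share kept differed: fits of only the groups compared kept 6 of 15 in CC at 12 weeks and 2 of 6 in CC recovery. They kept 19 of 20 for naïve CC against HP. For the naïve regions, however, only up to 10 called members in each direction, those with the largest differences, were followed. These shares are therefore not alike: naïve CC against CTX kept 15 of 16 followed members, although its calls fell from 30 to 18. With library weights CC at 12 weeks had 26 in place of 15, HP 7 in place of 0, the CC mean of 4 groups 19 in place of 11, CC recovery 13 in place of 6, HP recovery 12 in place of 3, CTX recovery 1 in place of 3, the 12 week effect of CC against CTX 5 in place of 2 and against HP 14 in place of 1, acute 3 weeks against naïve 17 and acute 5+1 against 3 weeks 19 in place of 0. Quantile normalization gave 17 for the CC mean of 4 groups, 6 for HP recovery, 0 for CTX recovery, 8 for CC against CTX and 4 for CC against HP at 12 weeks. Fits of only the groups compared gave 6 for CC at 12 weeks, 2 for CC recovery, 0 for HP and for CTX recovery, 18 in place of 30 for naïve CC against CTX, 0 for CC against CTX and 7 for CC against HP at 12 weeks, and 1 for acute 3 weeks. The length and GC correction gave 10 for CC recovery, 2 for HP recovery and 2 for CTX recovery. Without the 8 HP libraries of mixed sex-linked signal HP recovery and the 12 week effect of CC against HP gave 0. Why these counts moved was not tested.

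Covariates from marker levels were chosen after seeing the data. Where a level did not overlap between the groups compared, such a fit cannot separate the level from the group difference. With the oligodendrocyte level the counts were 2 for CC at 12 weeks, 0 for CC recovery, 0 for HP recovery and 5 for CTX recovery, and the difference of Unc5b turned to 0.27 and that of Plxnb3 to 0.085 in CC at 12 weeks, Unc5b to -0.13 and Ephb1 to -0.073 in CC recovery, and Unc5b to -0.13 in HP recovery. With the nuclear RNA level the counts were 6 for CC at 12 weeks and 3 for the CC mean of 4 groups, where Sema4g turned to -0.0445. With the striatal level CC recovery gave 10, and with the hippocampal level HP recovery gave 1.

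Leaving out each library in turn gave 3 to 16 members for CC at 12 weeks, 0 to 0 for HP, 0 to 1 for CTX, 10 to 13 for the CC mean of 4 groups, 1 to 10 for CC recovery, 0 to 3 for HP recovery, 0 to 4 for CTX recovery, 21 to 32 for naïve CC against CTX, 29 to 38 for CC against HP and 27 to 35 for HP against CTX, 0 to 4 for the 12 week effect of CC against CTX and 0 to 1 against HP, 0 to 0 for acute 3 weeks and 0 to 14 for acute 5+1 weeks. A group left with 1 library took its spread from the other groups.

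Deviations of libraries with the same replicate number correlated at -0.167, 0.253 and -0.134 between 12 week and naïve HP. Between naïve CC and CTX they correlated at 0.151, -0.101 and 0.272 (0.502 for the second CC and the fourth CTX library). Between acute 5+1 and 3 weeks they correlated at 0.0976, 0.349 and 0.00227. Deviations from the means of such small groups are tied to each other, so these correlations cannot decide whether libraries are paired. With the replicate number as a block the counts were 15 for CC at 12 weeks, 8 for CC recovery, 2 for HP recovery, 4 for CTX recovery, 1 for CC against CTX and 1 for CC against HP at 12 weeks, 0 for acute 3 weeks and 1 for acute 5+1 weeks.

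Depth cannot be read from these log2 values, and groups of 2 or 3 libraries, a single acute naïve library and 12+12 week groups of females only limit what can be detected.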
